A study of Mus musculus with 14 samples.

Results

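Tight junctions seal the space between neighbouring epithelial cells, and 9 genes that encode parts of them are described here in mouse mammary epithelial cells. They are the claudins Cldn1, Cldn3, Cldn4, Cldn7 and Cldn8, the membrane proteins Ocln (occludin) and F11r (the junctional adhesion molecule JAM-A), and the scaffold genes Tjp1 and Tjp3. Members were taken by gene symbol from the deposited expression table, and all 9 were found among its 16124 genes. The list of members was chosen with earlier results of these data known. The libraries came from nulliparous females aged 3.5 months, 7 wild type (WT) and 7 Usp22 OE/OE, matched as littermate pairs that carry the numbers 1, 3, 4, 5, 6, 7 and 8, with 1 library per mouse. In Usp22 OE/OE mice (OE in what follows) both ROSA26 alleles carry a mouse Usp22 cDNA with FLAG and MYC tags behind the CAGGS promoter. The loxP-flanked STOP cassette in front of it had been removed in the germline by Zp3-Cre. Usp22, a deubiquitinase of the SAGA coactivator complex, is therefore overexpressed throughout the body, stromal cells of the gland included. Whether the WT littermates carried Zp3-Cre is not given in the sources used here. The question was whether the genes of the epithelial seal were expressed differently in glands that overexpress Usp22.

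A tight junction forms a belt near the apical end of the lateral membrane. Claudins of facing cells pair across the gap and set which ions and molecules pass, and the mix of claudins differs between epithelia. Occludin lies in the same strands, JAM-A contributes to the assembly and polarity of the junction, and the scaffolds encoded by Tjp1 and Tjp3 tie the membrane proteins to actin beneath. In the mammary gland the junctions lie between luminal cells around the duct lumen, they tighten around the onset of lactation, and the basal layer has few of them.

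As the check of the labels, Usp22 ranged from 3500 to 5380 normalized counts in WT and from 74948 to 144288 in OE, and no library went against its label. A normalized count is the number of sequenced fragments on a gene divided by the library's size factor. Libraries held 20125106 to 41835978 fragments on genes, with the fewest in the WT mice of pairs 1 (20125106) and 8 (22632805). The 10 luminal and 10 basal marker genes examined were all in the table and above 0 in every library. Markers of the other cell types in the table were above 0 too, so this alone does not tell epithelium from other cells. The lowest summed luminal marker level was 408319 normalized counts in WT and 421989 in OE. For basal markers the lowest sums were 150916 and 140761. A pair of libraries stood apart in other markers. The WT mouse of pair 1 had a summed lymphocyte marker level of 1654 normalized counts against 160 to 380 in the other WT mice, and the OE mouse of pair 4 had a summed endothelial marker level of 14999 against 52624 to 93770 in the other OE mice. Values without these pairs are given beside the members that moved most without them.

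All 9 are protein-coding genes of the GENCODE M21 annotation of GRCm38, and only Cldn3 and Cldn4 lie close together. On chromosome 5 stood Cldn3 (ENSMUSG00000070473.4) at chr5:134986214-134987472 on the plus strand and Cldn4 (ENSMUSG00000047501.3) at chr5:134945119-134946934 on the minus strand. Chromosome 16 held Cldn1 (ENSMUSG00000022512.3) at chr16:26356642-26371841 on the minus strand and Cldn8 (ENSMUSG00000050520.4) at chr16:88560828-88563183 on the minus strand. The called member, Cldn7 (ENSMUSG00000018569.12), lies at chr11:69964779-69967885 on the plus strand. The other membrane genes were Ocln (ENSMUSG00000021638.12) at chr13:100496507-100552718 on the minus strand and F11r (ENSMUSG00000038235.4) at chr1:171437535-171464603 on the plus strand. The scaffold genes were Tjp1 (ENSMUSG00000030516.14) at chr7:65296165-65527781 on the minus strand and Tjp3 (ENSMUSG00000034917.8) at chr10:81273207-81291581 on the minus strand.

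Upstream sequences are shown for Cldn7, the only member called as higher in OE, and for Cldn4, the most highly expressed member. Cldn7 was not called after adjustment, and its WT and OE values overlapped. Each sequence is the 250 bases that precede a RefSeq transcription start in GRCm38.p6, written 5′ to 3′ on the strand of the gene. CCGGAAG, an extended form of the ETS factor site, is in capitals where it occurs. The shorter core GGAA also occurs elsewhere in both windows and is left in lower case. The Cldn7 window is chr11:69964529-69964778 on the plus strand and the Cldn4 window is chr5:134946935-134947184 on the minus strand. Neither window overlaps an annotated exon.
Cldn7: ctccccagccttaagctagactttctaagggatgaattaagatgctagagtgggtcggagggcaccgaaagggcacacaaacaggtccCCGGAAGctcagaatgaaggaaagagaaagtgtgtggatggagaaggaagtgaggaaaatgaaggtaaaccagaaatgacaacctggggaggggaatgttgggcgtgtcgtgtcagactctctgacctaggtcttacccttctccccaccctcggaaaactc
Cldn4: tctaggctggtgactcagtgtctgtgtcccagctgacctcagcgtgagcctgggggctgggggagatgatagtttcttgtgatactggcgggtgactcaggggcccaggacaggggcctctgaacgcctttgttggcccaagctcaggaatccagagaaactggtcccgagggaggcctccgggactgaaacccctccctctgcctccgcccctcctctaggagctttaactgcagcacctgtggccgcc

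The RefSeq table held 11 such windows for 8 of the 9 members, and none was listed for Cldn8. CCGGAAG was searched on both strands, its reverse complement being CTTCCGG. It was picked because Elf3, an ETS factor of luminal cells described below, was called as higher in OE, though not after adjustment. The motif was therefore chosen after values were seen, and whether Elf3 acts on Cldn7 was not tested. The motif stood in both Cldn7 windows, beginning 162 bases before the first start site and, as CTTCCGG, 66 bases before the second. The second window, chr11:69965171-69965420, lies inside the gene and overlaps exons of other Cldn7 transcripts. The other 9 member windows did not hold these letters. Of all 32851 windows of this length, 6.91% held the motif, as did 12.0% of the 14964 windows of genes in the expression table. The E-box CACCTG, bound by Snail and Zeb repressors in epithelial genes, was found in windows of Cldn4, Cldn7, Ocln, Tjp3 and F11r, and in 17.2% of all windows and 16.2% of those of genes in the table. The GC box GGGCGG was found for every matched member but Tjp3, and in 32.7% of all windows and 54.6% of those of genes in the table. AACCGGTT, a grainyhead-like site, was in no member window in 0.116% of all windows and in 0.194% of those of genes in the table. All were searched on both strands, no motif contains another, and a match is only a description of the sequence.

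Levels of different genes were compared as normalized counts per kilobase of merged exon. Cldn4 was the most abundant member, at 34241 ± 9364 per kilobase in WT and 40002 ± 24663 in OE (SD, n = 7 mice each), higher than 99.9% of all genes in the table. Cldn4 protein is one of the claudins that tighten an epithelium, and its gene is a neighbour of Cldn3. Cldn3 came next at 5526 ± 1822 in WT and 6795 ± 3274 in OE, F11r followed at 3755 ± 667 and 3998 ± 765, and Cldn7 stood at 3217 ± 767 and 4141 ± 1272. Each of these 4 genes was above at least 97.6% of the table.

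The remaining members were at lower levels. Tjp1, the main scaffold of the junction, was at 1257 ± 273 per kilobase in WT and 1491 ± 576 in OE (SD, n = 7 mice each). Ocln was at 843 ± 121 and 959 ± 181, and Cldn1 at 642 ± 267 and 564 ± 157. The lowest members were Cldn8, at 418 ± 213 and 492 ± 303, and the scaffold gene Tjp3, at 394 ± 65.1 and 400 ± 58.5. The lowest member still exceeded 74.8% of the genes in the table.

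**Figure D1:**
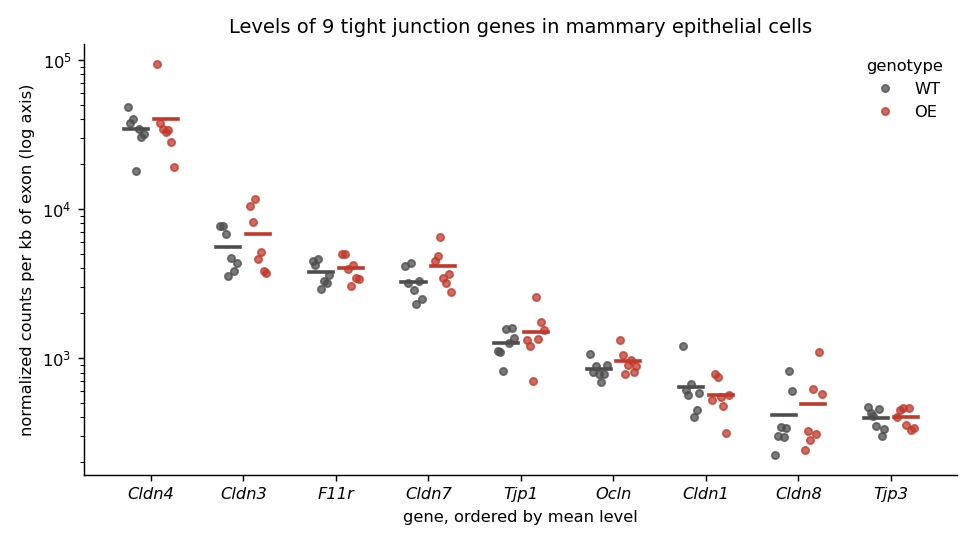
Level of the 9 tight junction genes in each of the 14 libraries, as normalized counts per kilobase of exon on a log axis, with WT and OE mice as separate points and the mean of each genotype. Cldn4 lies apart from the rest, 6.01-fold above Cldn3 over the litters, and the WT and OE points overlap for every gene.

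The order of these levels was tested between neighbours on the log2 per-kilobase scale, over the means of the 7 litters with the exact sign-flip test (two-sided, 8 comparisons, smallest possible p 0.0156). Cldn4 exceeded Cldn3 in 14 of 14 libraries by a log2 difference of 2.59 ± 0.33 (SD over 7 litters, exact p = 0.0156). Cldn3 exceeded F11r and Cldn7 exceeded Tjp1 in 14 of 14 libraries, by 0.58 and 1.43 (both exact p = 0.0156). Tjp1 exceeded Ocln in 12 libraries by 0.56 (exact p = 0.0469), and Ocln exceeded Cldn1 in 13 by 0.63 (exact p = 0.0156). Adjusted over the 8 comparisons by the Benjamini-Hochberg method, the 4 p-values of 0.0156 became 0.0312 and that of Tjp1 over Ocln became 0.075. The other neighbours could not be ordered beyond their spread. F11r exceeded Cldn7 by 0.11 in 10 of 14 libraries (exact p = 0.328), Cldn1 exceeded Cldn8 by 0.51 ± 1.00 in 9 (exact p = 0.219), and Cldn8 exceeded Tjp3 by 0.04 ± 0.89 in only 5 (exact p = 0.938).

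The members also differed in how widely they varied. Between the lowest and the highest of the 14 libraries, Cldn4 varied 5.29-fold, Cldn8 4.88-fold, Cldn1 3.82-fold, Tjp1 3.66-fold, Cldn3 3.30-fold and Cldn7 2.83-fold. Ocln, F11r and Tjp3 were more even, at 1.90, 1.70 and 1.56-fold. Much of this variation ran with the litter. The littermate pair took between 61.6% (Cldn1) and 92.0% (Tjp3) of a member's sum of squares on the log2 scale, against a median of 73.9% over all genes. Genotype took 19.4% for Cldn7 and 14.9% for Ocln, and between 0.360% (Tjp3) and 4.33% (Tjp1) for the other 7 members, against a median of 1.43% over all genes.

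Cldn4 made up most of the transcript mix of the 5 member claudins. Of the summed per-kilobase level of the 5 member claudins, Cldn4 held 77.4 ± 3.42% in WT and 75.2 ± 6.78% in OE (SD, n = 7 mice each). Its share ranged from 70.8% to 81.5% over the WT libraries and more widely, from 64.0% to 85.8%, over the OE libraries. Cldn3 held 12.5 ± 1.94% and 13.5 ± 4.26%, and Cldn7 held 7.56 ± 1.98% and 8.81 ± 2.59%. Cldn1 and Cldn8 were minor components, at 1.51 ± 0.60% and 1.03 ± 0.61% in WT and at 1.25 ± 0.52% and 1.24 ± 1.00% in OE. Claudins outside the members are not in this sum. The most abundant of them were Cldn5 and Cldn10, with means of 1659 and 617 per kilobase over the libraries.

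**Figure D2:**
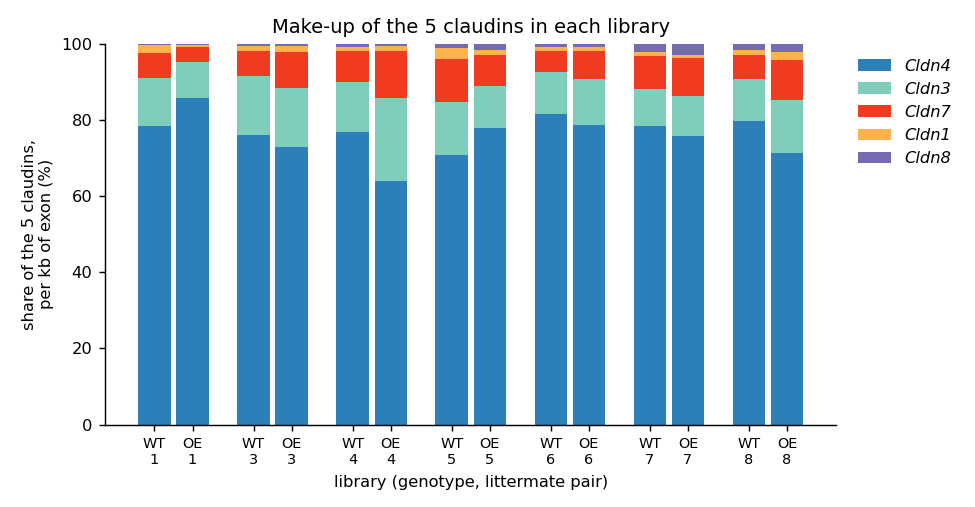
Percent share of Cldn1, Cldn3, Cldn4, Cldn7 and Cldn8 in their summed level per kilobase, stacked for each of the 14 libraries in littermate pairs. Cldn4 takes the largest share in every library, from 64.0% to 85.8%.

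No claudin's share differed between the genotypes beyond the spread between pairs (exact sign-flip test, two-sided). The Cldn4 share changed by -2.17 ± 6.87 percentage points (SD over 7 pairs, lower in 5, exact p = 0.484), and the Cldn7 share differed by 1.25 ± 2.75 points (exact p = 0.297). For Cldn3, Cldn1 and Cldn8 the differences were 0.97 ± 3.71, -0.26 ± 0.78 and 0.20 ± 0.37 points (exact p = 0.562, 0.438 and 0.266), and adjusted over the 5 shares every p was 0.562. The summed claudin level ranged from 25173 to 61333 per kilobase in WT, with a median of 41829, and from 26706 to 109881 in OE, with a median of 43120. Its log2 difference was 0.16 ± 0.45, higher in 5 of 7 pairs (exact p = 0.312).

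Cldn7 was the only member called in the main limma fit, and it was not called after adjustment. Its product is a claudin of the lateral membrane in ductal epithelia, where it also binds Epcam. Cldn7 had 4483 normalized counts in the lowest WT mouse, a median of 6170 and 8402 in the highest, against 5418, 7174 and 12708 in OE. The ranges of the genotypes overlapped, but within every litter the OE mouse had the higher value. The WT and OE littermates had 8035 and 8703 normalized counts in pair 1, 6170 and 9475 in pair 3, and 8402 and 12708 in pair 4. They had 5560 and 6728 in pair 5 and 4483 and 6256 in pair 6. They had 6365 and 7174 in pair 7 and 4848 and 5418 in pair 8. The smallest log2 ratio was 0.12 in pair 1 and the largest 0.62 in pair 3.

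**Figure D3:**
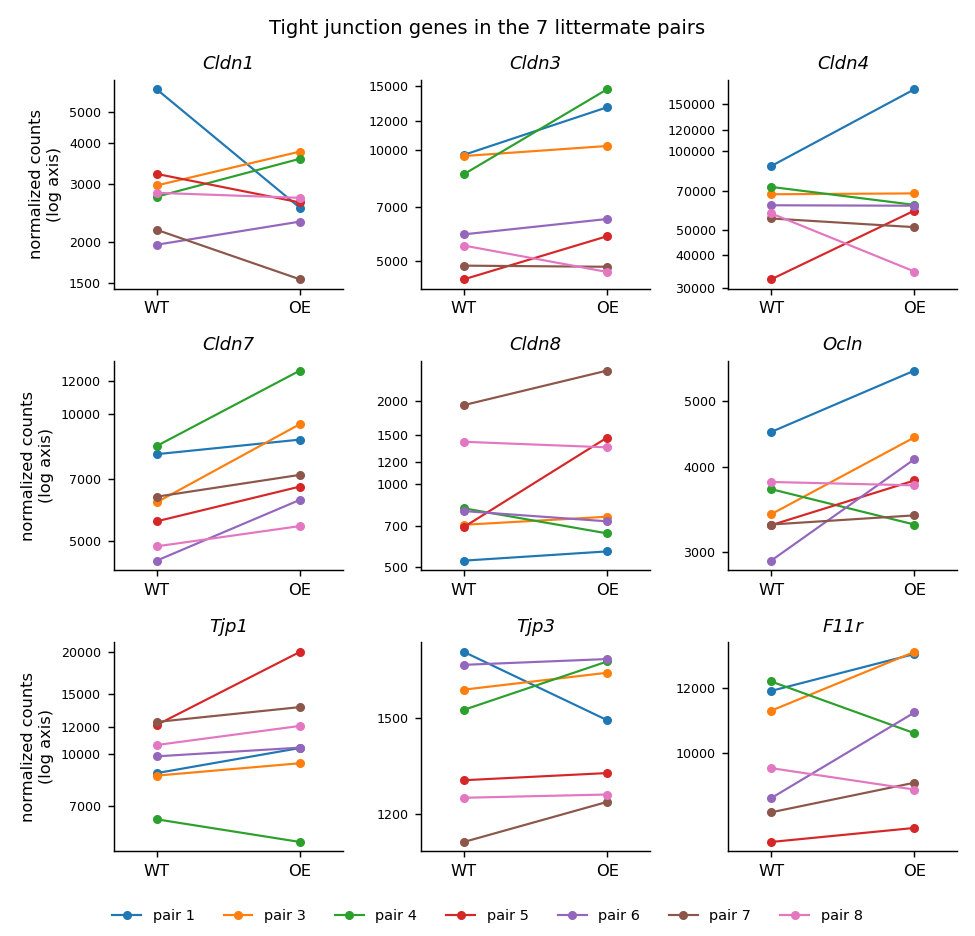
Normalized counts of each tight junction gene in the 7 littermate pairs, 1 panel per gene, with a line joining the WT and the OE mouse of a litter. Every line of Cldn7 rises from WT to OE, whereas the lines of the other genes go in both directions.

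The mean change of Cldn7 was 0.35 on the log2(normalized count + 1) scale, with a standard error of 0.09 and a 95% interval of 0.15 to 0.54, which is 1.27-fold (1.11 to 1.45). With litter as the block in limma the unadjusted p was 0.00267, below the study's threshold of 0.05, and the adjusted p over all genes was 1.00. Of all genes 0.0124% had an adjusted p under 0.05. Across the genome 3.81% of genes passed this threshold and 1.95% did so as higher in OE. The exact sign-flip test of the 7 pairs gave p = 0.0156, the smallest it can give, and 0.887% of all genes were higher in OE in all 7 pairs. A per-gene paired test on normalized counts, the kind of test used in the study, was also run here. This rerun called 644 genes in all and gave Cldn7 an unadjusted p of 0.0170. Without the pair as a block the same change of 0.35 had an unadjusted p of 0.0939 and was not called. Each leave-out of 1 pair kept the change between 0.30 and 0.38 and the p at 0.0105 or less. Relative to the luminal marker score of the same library, Cldn7 was higher in OE by 0.30 ± 0.23 on the log2 scale and in 7 of 7 pairs (exact p = 0.0156). With the fibroblast or the adipocyte marker score as a covariate the change was 0.23 in both fits and the unadjusted p was 0.0785 and 0.0506, so the call was lost. These fits called 1.58% and 17.7% of all genes, and the fit without the block called 1.13%. In these bulk samples fewer cells of a type and less RNA per cell cannot be told apart.

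Markers of other cell types were measured in the same libraries, and no marker score differed between the genotypes at p of 0.05 or less. The fibroblast marker score changed by -0.40 ± 0.41 on the log2 scale in OE (SD over 7 pairs, lower in 5, exact sign-flip p = 0.0625). All 8 fibroblast markers had a mean below 0 and 3 were called, where 3.81% of all genes were. All 8 endothelial markers, all 8 macrophage markers and 8 of 10 basal markers also had a mean below 0, and none of them was called. The summed fibroblast level lay between 111266 and 210752 in WT and between 83607 and 164089 in OE. The adipocyte score changed by -0.75 ± 0.78 (lower in 6 pairs, exact sign-flip p = 0.0781), with sums of 13612 to 34334 in WT and 10054 to 31138 in OE. Of its 8 markers, 6 had a mean below 0 and 4 were called, all lower in OE. Lipe was at 0.20 and Pparg at 0.0013. The scores of luminal cells, 0.04 ± 0.09, and of basal cells, -0.07 ± 0.23, differed by less than the spread between pairs (exact p = 0.328 and 0.594). The luminal progenitor and alveolar score changed by -0.089 ± 0.31 (exact p = 0.484). Hormone-sensing luminal, endothelial, macrophage and lymphocyte scores changed by -0.11 ± 0.33, -0.11 ± 0.72, -0.13 ± 0.37 and -0.25 ± 0.90 (exact p = 0.375, 0.750, 0.469 and 0.641). No marker in the table was at 0 in any library. The part of these cell types in the change of Cldn7 was not tested beyond the fits with a score as covariate given above.

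Among the other claudins, Cldn3 had 4453, 5905 and 9723 normalized counts in the lowest, median and highest WT mouse and 4663, 6502 and 14677 in OE. The OE littermate was higher in 5 of 7 pairs, most in pair 4, and the genotypes overlapped over most of their range. The log2 change was 0.22 (standard error 0.11, interval -0.03 to 0.48, limma unadjusted p = 0.0806, exact sign-flip p = 0.156). Without pair 8 it was 0.30 with an unadjusted p of 0.0267, in a fit that called 2.99% of all genes. Without pair 4 it fell to 0.13 (unadjusted p = 0.191), and without pairs 1 and 4 to 0.074 (unadjusted p = 0.450). Cldn3 shares 40 exon bases, 3.18% of its exon length, with Wbscr25 on the opposite strand, so a few fragments could belong to either if counting ignored strand.

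Cldn4 had 32359, 61916 and 87261 normalized counts in WT and 34654, 61666 and 171127 in OE. The highest value, in the OE mouse of pair 1, was far above the next one of 68704, and the medians of the genotypes were nearly equal. Pair ratios went from -0.74 to 0.97 on the log2 scale, with 3 of 7 above 0. The mean change of 0.11 (standard error 0.21, interval -0.35 to 0.57, limma unadjusted p = 0.603, exact sign-flip p = 0.656) turned to -0.033 without pair 1 and to -0.016 without pair 5.

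Cldn1, a barrier claudin best known from skin, was the only member with a mean change below 0. It had 1959, 2824 and 5861 normalized counts in WT and 1536, 2640 and 3777 in OE, and was higher in OE in 3 of 7 pairs. The WT mouse of pair 1 held the highest value, 5861 against 2542 in its OE littermate. The log2 change was -0.15 (standard error 0.18, interval -0.56 to 0.25, limma unadjusted p = 0.410, exact sign-flip p = 0.578), and it was 0.020 without pair 1. Cldn8, a claudin known from tight epithelia such as the collecting duct, had 526, 796 and 1927 in WT and 569, 759 and 2570 in OE. Both its highest values were in the litter of pair 7, and the largest rise was in pair 5, from 697 to 1470. Its change was 0.17 (standard error 0.15, interval -0.16 to 0.51, limma unadjusted p = 0.278, exact sign-flip p = 0.406). It was 0.022 without pair 5 (unadjusted p = 0.834), and 0.28 without pairs 1 and 4 (unadjusted p = 0.122).

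The membrane protein genes outside the claudin family showed small differences. Ocln had 2912, 3408 and 4503 normalized counts in WT and 3291, 3821 and 5544 in OE, higher in OE in 5 of 7 pairs. Its log2 change was 0.18 (standard error 0.09, interval -0.02 to 0.38, limma unadjusted p = 0.0753, exact sign-flip p = 0.0938). Without pair 4, whose OE library had little endothelial signal, it was 0.24 with an unadjusted p of 0.0160, and that fit called 8.47% of all genes. F11r had 7787, 9579 and 12212 in WT and 8100, 10564 and 13269 in OE, also higher in 5 pairs. Its change of 0.09 (standard error 0.08, interval -0.10 to 0.27, limma unadjusted p = 0.312, exact sign-flip p = 0.281) was within the spread between pairs. With a pair left out it lay between 0.045 (without pair 6) and 0.14 (without pair 4).

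Of the scaffold genes, Tjp1 had 6386, 9817 and 12415 normalized counts in WT and 5470, 10419 and 20038 in OE. It was higher in OE in 6 of 7 pairs, most in pair 5, from 12161 to 20038, and lower in pair 4. The log2 change was 0.18 (standard error 0.10, interval -0.05 to 0.42, limma unadjusted p = 0.107, exact sign-flip p = 0.109), and 0.25 with an unadjusted p of 0.0249 without pair 4. Without pair 5 it was 0.094 with an unadjusted p of 0.276. Tjp3 varied least of the members, with 1124, 1529 and 1750 in WT and 1234, 1492 and 1721 in OE. It was higher in OE in 6 of 7 pairs by small amounts and lower in pair 1. Its change was 0.026 (standard error 0.07, interval -0.13 to 0.18, limma unadjusted p = 0.713, exact sign-flip p = 0.625), and with a pair left out it lay between 0.0028 (without pair 4) and 0.068 (without pair 1). Tjp3 shares 40 exon bases, 1.08% of its exon length, with Apba3.

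Counted together, 8 of the 9 members had a mean change above 0 and their median was 0.17, against a median of -0.0015 and 49.6% above 0 over all 16124 genes. Among the 5942 genes at or above the mean count of the lowest member, 61.4% were above 0 and the median was 0.025. One member, Cldn7, was called, against 3.81% of all genes and 3.92% of those 5942. No member's WT and OE values were separate, which held for 0.0434% of all genes, and all 9 adjusted p-values were 1.00. Leaving out pair 4 made 3 calls, Cldn7, Ocln and Tjp1, where 8.47% of all genes were called, and leaving out pair 8 made 2, Cldn3 and Cldn7, where 2.99% were. Leaving out pairs 1 and 4 together made calls for Cldn7, Ocln and Tjp1 again, where 11.2% of all genes were called. With the adipocyte score as a covariate Cldn1, Ocln and Tjp1 were called, where 17.7% of all genes were. No member was called with the fibroblast score, and none without the block.

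**Figure D4:**
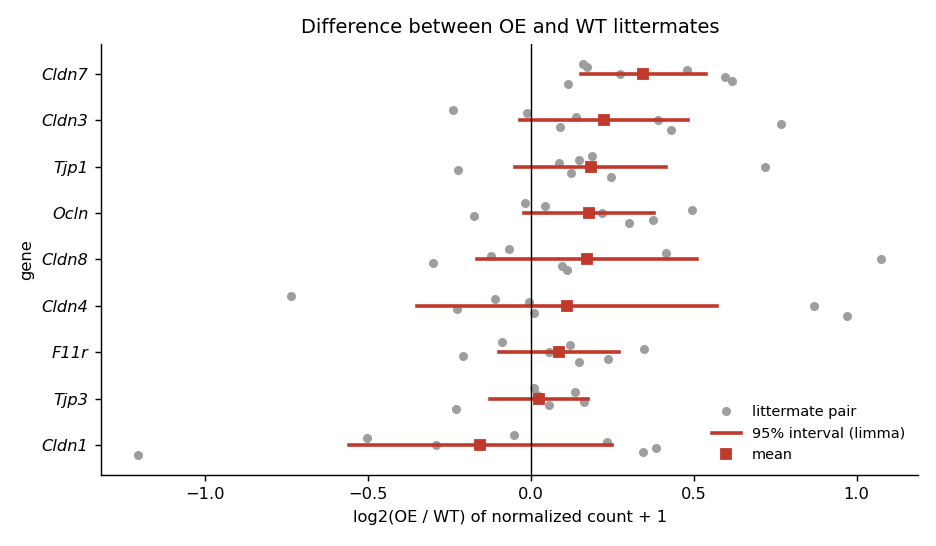
Log2 difference between OE and WT for the 9 tight junction genes, with the 7 pair ratios as points and the limma mean with its 95% interval. The interval of Cldn7, 0.15 to 0.54, lies above 0 and the intervals of the other 8 genes include 0.

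Some members moved together from litter to litter. Over the 7 pair log2 ratios, Ocln and F11r had a Pearson r of 0.941 (exact permutation p = 0.00179, adjusted 0.0964 over 54 relations) and a Spearman rho of 0.964 (exact p = 0.00278, adjusted 0.15). The relation was 0.811 without the 2 pairs farthest from the median. Cldn1 and Cldn7 had r = 0.839 (exact p = 0.0155, adjusted 0.252) and rho = 0.857 (exact p = 0.0238, adjusted 0.429), and r was 0.871 without the 2 farthest pairs. Cldn8 and Tjp1 had r = 0.906 (exact p = 0.00853, adjusted 0.230) and rho = 0.821 (exact p = 0.0341, adjusted 0.461). This last relation rested on the 2 farthest pairs, with r = 0.162 without them. Cldn4 ratios went with the luminal marker score, at r = 0.826 (exact p = 0.0187, adjusted 0.252) and rho = 0.893 (exact p = 0.0123, adjusted 0.332), and r = 0.970 without the 2 farthest pairs. With the basal score Cldn4 had r = -0.805 (exact p = 0.0246, adjusted 0.266) and rho = -0.643 (exact p = 0.139, adjusted 0.625), which fell to 0.0209 without them. No relation passed an adjusted p of 0.05.

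The rest of the junction was described by 7 lists holding 97 genes, all in the table. The lists were chosen with earlier results of these data known, which limits what their share of calls can show. They hold claudins outside the members, junctional membrane proteins, plaque proteins, polarity complexes, regulators, transcription factors of the epithelial junction, and genes of adherens junctions and desmosomes. Of the 97 genes 9 were called, all higher in OE, or 9.28% against 3.81% of all genes. The median change was 0.07 and 69 genes, 71.1%, were above 0, against -0.0015 and 49.6% over all genes. Among genes at or above the mean count of the lowest member, the median was 0.025 and 61.4% were above 0. No gene of these lists had an adjusted p under 0.05, and 2 were higher in all 7 pairs, as were 0.887% of all genes. The count was 0 with the fibroblast score as a covariate, 28 with the adipocyte score and 1 without the block. These fits called 1.58%, 17.7% and 1.13% of all genes. The count was 4 with the luminal score, which holds the list genes Epcam, Cdh1 and Elf3, and that fit called 3.63% of all genes. With a pair left out the count lay between 3 (without pair 6) and 17 (without pair 1), where 2.36% and 7.42% of all genes were called. The part of stromal cells in these calls was not tested further.

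Of the 10 claudins outside the members none was called and 3, 30.0%, had a mean above 0, against 49.6% of all genes. Their median change was -0.14. Cldn15, a pore-forming claudin, was at -0.40 (standard error 0.24, unadjusted p = 0.130), Cldn12 at 0.13 (unadjusted p = 0.145) and Cldn10 at 0.18 (unadjusted p = 0.266). In the list of the occludin family, junctional adhesion molecules and tricellular proteins, 1 of 11 was called. Ildr1, which encodes a tricellular junction protein, rose from 1246 ± 141 to 1392 ± 102 normalized counts (SD, n = 7 mice each), by a log2 change of 0.16 ± 0.07 (SE, limma unadjusted p = 0.0388), in 7 of 7 pairs (exact sign-flip p = 0.0156). Its tricellular partner Marveld2 was at 0.11 (unadjusted p = 0.180) and Clmp at -0.19 (unadjusted p = 0.267).

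Of 11 plaque genes 2 were called. Cgnl1, which encodes paracingulin, rose from 5756 ± 550 to 6837 ± 1387 normalized counts, a log2 change of 0.23 (limma, unadjusted p = 0.0227), in 6 of 7 pairs. Amot, an angiomotin that links the plaque to the Hippo pathway, rose from 950 ± 165 to 1121 ± 255, by 0.22 (unadjusted p = 0.0374), also in 6 pairs. None of the 13 polarity genes was called, although 10, 76.9%, were above 0, against 49.6% of all genes. Pard6b was at 0.16, Pard3 at 0.12 and Scrib at 0.12 (limma, unadjusted p = 0.0958, unadjusted p = 0.128 and unadjusted p = 0.157).

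Of 16 regulators 2 were called. Wnk4, a kinase that acts on claudins and ion transport, rose from 319 ± 69.3 to 415 ± 149 normalized counts, by 0.33 on the log2 scale (limma, unadjusted p = 0.0163), in 6 of 7 pairs. Prss8, a membrane-anchored serine protease of epithelia, rose from 1463 ± 345 to 1752 ± 376, by 0.27 (unadjusted p = 0.0322), in 5 pairs. Among 12 transcription factors Elf3 was called, with 5229 ± 1277 normalized counts in WT and 7050 ± 1768 in OE. Its log2 change was 0.43 with a standard error of 0.13 (limma, unadjusted p = 0.00920), and pair ratios lay between -0.27 and 0.90 with 6 of 7 above 0. Elf3 is also in the luminal marker list. Ovol1 was at 0.31 (unadjusted p = 0.0663) and Twist2, a repressor of epithelial genes, at -0.29 (unadjusted p = 0.107).

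In the adherens junction and desmosome list 3 of 24 genes were called and 22, 91.7%, were above 0. Of all genes, 3.81% were called and 49.6% were above 0. Ctnnd1, the p120 catenin that holds cadherins at the membrane, rose from 1953 ± 200 to 2229 ± 263 normalized counts, by 0.19 (limma, unadjusted p = 0.0119), in 7 of 7 pairs. The desmosomal genes Dsc2 and Jup rose by 0.24 (unadjusted p = 0.0257) and 0.25 (unadjusted p = 0.0342), each in 6 pairs, and Jup was the most abundant of the 3 at 27245 ± 4600 in WT and 32306 ± 4857 in OE. Chosen after their values were seen, Cdh1 (E-cadherin) was at 0.13 (unadjusted p = 0.203), Epcam was at 0.05, and the repressors Snai1, Snai2, Zeb1, Zeb2 and Twist1 were at -0.015, 0.021, -0.19, -0.11 and -0.32. None of these 7 genes was called.

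**Figure D5:**
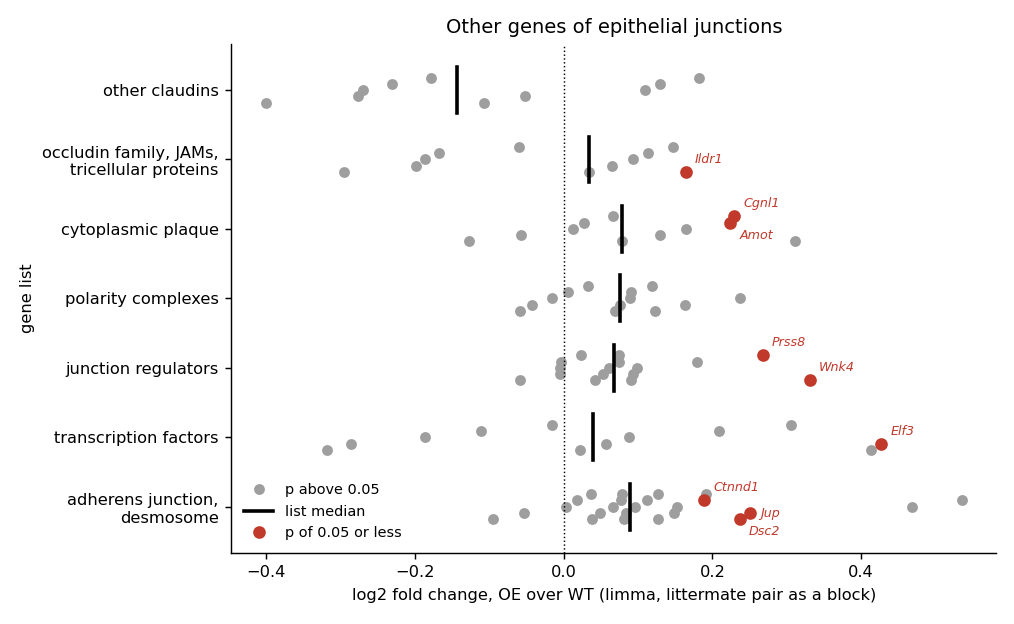
Log2 change in OE against WT for the 97 genes of the 7 other junction lists, 1 point per gene, with called genes in red and the median of each list as a bar. The 9 called genes are all above 0, and the claudins outside the members have a median of -0.14.

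The genes most alike to each member over the 14 libraries were found by Pearson r of log2(normalized count + 1), as a description in which libraries share litters, depth and cell makeup. The closest profiles belonged to Tjp1, with Osbpl8 at 0.975, Nup153 at 0.974 and Myo10 at 0.971, and to Cldn8, with Tmprss13 at 0.973, Ide at 0.968 and Mia2 at 0.963. F11r was most like Arf2 at 0.955, Tuba1c at 0.946 and Cd81 at 0.936. Cldn3 was most like Slc9a3r1 at 0.953, Zfp622 at 0.949 and another claudin, Cldn23, at 0.942. Cldn7 was most like Pcbp2 at 0.940, Khdrbs1 at 0.932 and Nup62 at 0.930. The nearest genes were Rad51b (0.927), Tapbpl (0.927) and BC052040 (0.921) for Tjp3, and Rhob (0.889), Lix1 (0.878) and Edn1 (0.868) for Cldn4. For Cldn1 they were Egln3 (0.882), Msln (0.873) and Rassf10 (0.852), and for Ocln they were Herpud1 (0.880), Sowahb (0.865) and Rnf19b (0.859). Between members, Cldn3 was alike to F11r (0.809), Cldn7 (0.783) and Cldn4 (0.741), whereas Cldn8 ran opposite to Tjp3 (-0.813) and Cldn3 (-0.692).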

How the data were processed

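RNA was sequenced from mammary epithelial cells, prepared as organoids from glands 2 to 4 by collagenase, pulse centrifugation and trypsin. Read pairs were mapped by the authors with TopHat2 2.0.10 (build mm10) and counted per GENCODE M21 gene with HTSeq 0.6.0. A gene needed 10 or more fragments in 7 or more libraries, and the authors deposited the counts divided by DESeq 1.18.0 size factors. The deposited values are thus a signal on a linear scale. The strand setting of counting is not given in the sources used here. In every library 100% of values were whole multiples of 1 fragment within a tolerance of 0.01, so fragments were recovered for edgeR and DESeq2. Reads carry no molecular identifiers.

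Expression was compared with limma 3.58.1 (R 4.3.3, lmFit and eBayes with trend) on log2(normalized count + 1) over all 16124 genes, with litter as a block. A gene was called at an unadjusted p of 0.05 or less, as in the study, with Benjamini-Hochberg adjustment over all genes beside it. It called 614 genes, 315 higher and 299 lower, and 2 after adjustment. The log2 scale with a pseudocount understates changes of low genes. Single values were tested by exact sign flips over the 7 pairs (128 patterns, two-sided, smallest p 0.0156). Pairing comes from the label numbers and the littermate matching in the methods. Deviations from the genotype means correlated between same-numbered mice at 0.171 to 0.748 (median 0.522, 7 pairs). Over the 42 other combinations the correlation ran from -0.538 to 0.634, with a median of -0.151, so the ranges overlapped. Alternatives were edgeR 4.0.16 (quasi-likelihood), DESeq2 1.42.0, pseudocounts of 0.1 and 10, a minimum mean of 50, median centring, the study's per-gene paired test, marker scores as covariates, no block and each pair left out. The fibroblast score, the level relative to the luminal score, and leaving out pairs 1 and 4 together were chosen after seeing the data. The limma code was tested on simulated data.

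Exon lengths and positions are from GENCODE M21 (GRCm38), which matched every identifier, and upstream sequences are from RefSeq (GRCm38.p6). Words of 75 bases were shared with another gene only for F11r, 4 words or 0.150% with Pacs2. The genes named are the 9 members, list genes with p of 0.05 or less or up to 3 with the smallest p per list, and the 3 genes most alike to each member. Cdh1, Epcam, Snai1, Snai2, Zeb1, Zeb2 and Twist1 were named outside this rule, after their values were seen. Members, gene lists and marker lists were chosen with earlier results of these data known.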

Additional observations from a re-analysis of the deposited data

Results flagged for a closer look

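Cldn4 in the OE mouse of pair 1 stood far from the other OE mice, at 171127 normalized counts against 68704 in the next highest. On the log2 scale the gap was 0.571 of the whole range of the 7 OE values, above Dixon's 95% critical value for a group of this size. It was the only such value in the 18 groups examined (9 genes in 2 genotypes), where chance alone would give 0.9. The WT littermate also held the highest Cldn4 value of its group, 87261. Without pair 1 the mean log2 change of Cldn4 was -0.033 in place of 0.11.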

How the results depend on the processing

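Across 21 alternatives per gene, Cldn7 stayed above 0 (0.23 to 0.38). It lost its call at 0.35 (unadjusted p = 0.0939) with no replicate block, and at 0.23 with the adipocyte (unadjusted p = 0.0506) and fibroblast (unadjusted p = 0.0785) scores. DESeq2 gave an unadjusted p of 0.000411 and an adjusted p of 0.169. F11r kept its direction and stayed uncalled in all 21. Means turned sign for Tjp3 with the adipocyte score (-0.064), the fibroblast score (-0.045) and relative to the luminal score (-0.016), for Cldn4 with the basal (-0.025) and luminal (-0.10) scores and without pair 1 (-0.033) or 5 (-0.016), against up to 0.25 without another pair, for Cldn8 with the fibroblast score (-0.011) and for Cldn1 without pair 1 (0.020, down to -0.24 without another pair). The cause was not tested.

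Calls appeared with the adipocyte score for Cldn1 (-0.56), Ocln (0.31) and Tjp1 (0.32), and without pairs 1 and 4 for Ocln (0.22) and Tjp1 (0.25). The main setting called 1 member, 9 other junction genes and 614 genes in all. These counts were 0, 1 and 182 without the block, 3, 28 and 2847 with the adipocyte score, 0, 0 and 254 with the fibroblast score, and 3, 21 and 1805 without pairs 1 and 4. The luminal score left 4 other junction genes, and the basal score gave 821 genes in all. Median centring moved the split of all calls from 315 higher and 299 lower to 386 and 245. Leaving out 1 pair gave 1 to 3 members, 3 to 17 other junction genes and 381 to 1366 genes in all. Shares in the claudin mix then differed by -0.41 to -0.05 points for Cldn1, -0.31 (without pair 4) to 1.66 for Cldn3, -3.77 to -0.40 for Cldn4, 0.76 to 1.97 for Cldn7 and 0.10 to 0.26 for Cldn8.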
